A study of Homo sapiens with 9 samples.

Results

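The 9 genes described here are TP63 and TP73, the relatives of p53, their regulators MDM2 and MDM4, and 5 genes that p53 is known to switch on, CDKN1A, GADD45A, TP53INP1, BTG2 and SESN1. They were chosen by gene symbol from the p53 pathway, with earlier results of these data known, and make up 9 of the 17083 genes in the deposited table. All 9 passed the filter on low counts and were among the 12924 genes tested. RNA was measured in HEK293T cells, a line derived from human embryonic kidney that the labels describe as epithelial and wild-type in genotype. The groups were cells overexpressing PLK2-FLAG, cells overexpressing PLK2(D223N)-FLAG, which carries the single change its name gives, and cells given the FLAG vector alone, called Vector here. Each group had 3 libraries from replicates the submitters called biological, and the stated question was which genes PLK2 regulates. PLK2, polo-like kinase 2, is a serine/threonine kinase and is itself known as a p53 target. The labels give no time after overexpression and do not say what D223N does to the enzyme.

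p53 is a transcription factor that is stabilised after DNA damage and other stress and then raises genes that stop the cell cycle, repair DNA or start cell death. p63 and p73 bind much the same DNA motif; p63 is best known for the maintenance of basal epithelia such as the epidermis, and p73 for multiciliated cells and neural development. MDM2 ubiquitinates p53 and is a p53 target itself, which closes a feedback loop, while MDM4 binds and masks the p53 activation domain. HEK293T cells carry the SV40 large T antigen, which binds p53 and blocks its activity, so that all 3 groups share this background. RNA of large T was not analysed here.

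Library totals ran from 14288165 to 16510186 estimated counts. PLK2 RNA, the check of the labels, was at 3.42 ± 0.64 CPM (read counts scaled to library size, with TMM factors; SD, n = 3) in the Vector libraries. It reached 12358 ± 1650 CPM with PLK2(D223N) and 23744 ± 2384 CPM with PLK2. The PLK2 libraries thus held more transgene RNA than the PLK2(D223N) libraries, by a log2 fold change of 0.94 (SE 0.09), and the part of this gap in any difference between those groups was not tested. Vector replicate 1 stood apart from the other Vector libraries: the chi-square per gene between replicates was 17.8 and 10.9 for its pairs, 2.69 for the other Vector pair and 1.66 to 2.99 within the other groups. Of the 10 HEK293 identity markers, all had counts and 8 passed the filter. Their summed level was 573 to 669 CPM (no TMM scaling) over the 9 libraries. GATA3, KRT8, KRT18, CDH2, VIM, NEFL and EPCAM had a mean of at least 1 CPM, whereas PAX2, LHX1 and NEFM did not. On the same scale leukocyte markers summed to 2.78 to 4.74 CPM, microglia markers to 0.061 to 1.06 and endothelial markers to 0.787 to 1.43. Fibroblast markers reached 14.0 to 17.2 CPM. Keratinocyte markers reached 59.0 to 65.2 CPM, carried by KRT10 and DSC3, whereas KRT5 and KRT14, which define the basal layer where p63 acts, had at most 1 count in any library.

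Per transcript length, on the deposited TPM scale (read counts scaled to transcript length and library size), MDM2 was the most abundant of the 9 genes and TP63 the least in each group. In Vector libraries mean TPM was 46.2 for MDM2, 37.4 for GADD45A, 18.7 for SESN1, 15.2 for MDM4 and 13.4 for BTG2. CDKN1A followed at 7.36, TP53INP1 at 6.56, TP73 at 3.90 and TP63 at 0.327. The order of the means was the same in PLK2(D223N) and in PLK2 libraries. Neighbours in this order whose libraries overlapped were MDM4 and BTG2 in Vector, and CDKN1A and TP53INP1 in PLK2. CDKN1A, which encodes the cell cycle inhibitor p21 and is strongly raised by active p53, was thus below MDM2, GADD45A, SESN1, MDM4 and BTG2 in mean TPM in each group.

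**Figure D1:**
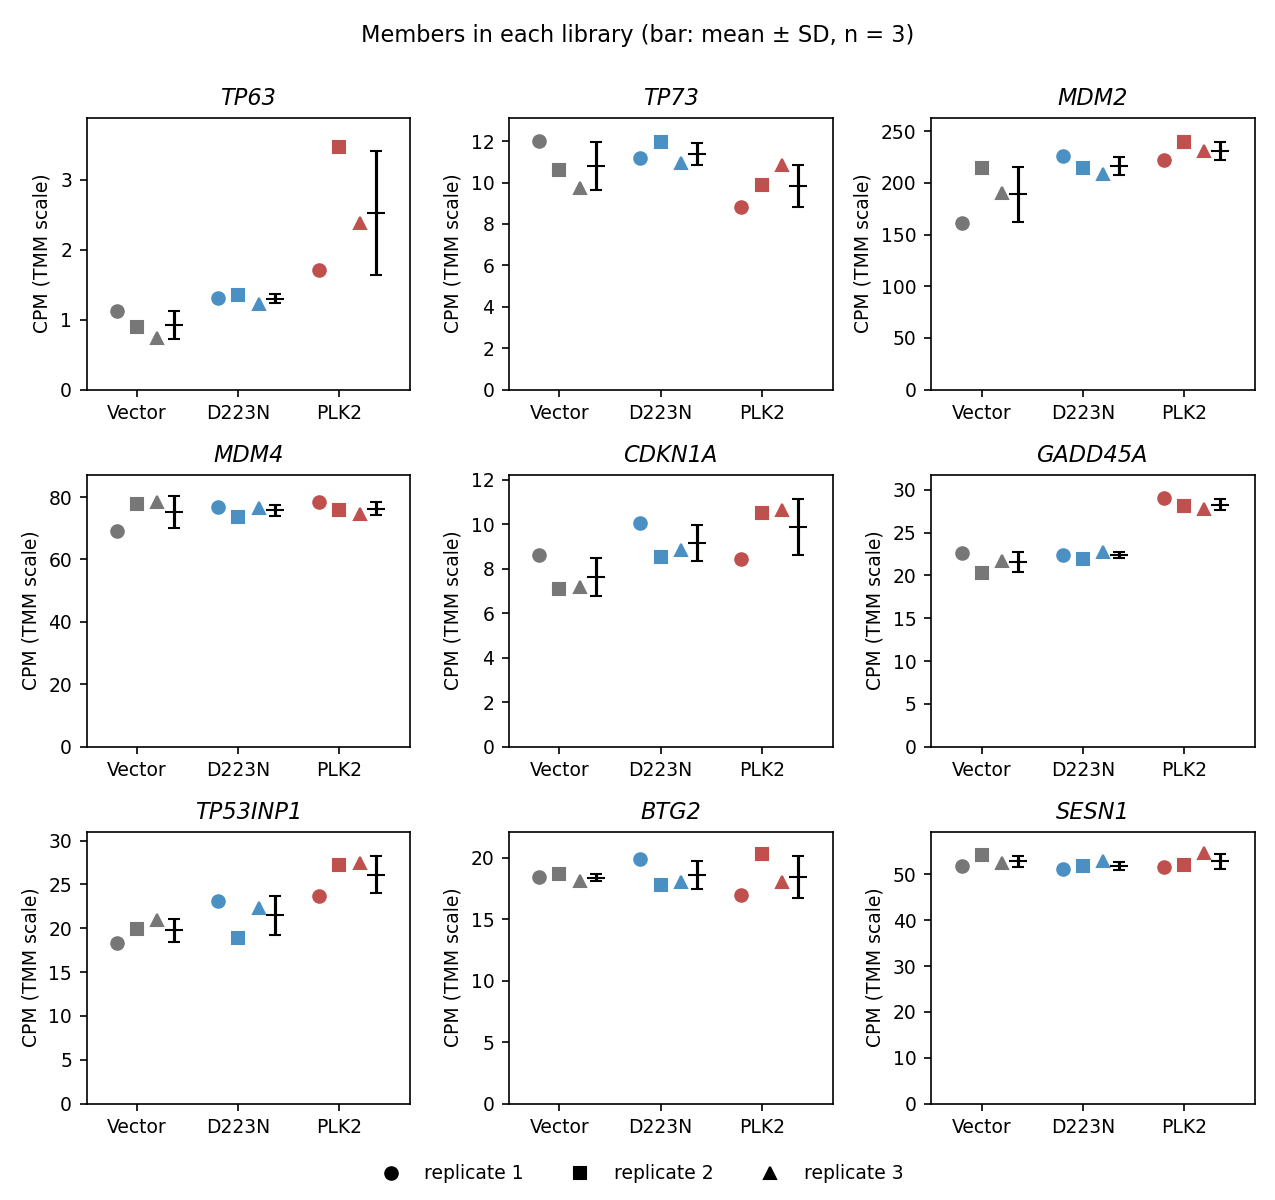
Level of each of the 9 genes in each library, in CPM on the TMM scale (y axes start at 0 and differ between genes), by group on the x axis; symbols mark replicates and bars the mean ± SD of 3 libraries. The 3 PLK2 libraries lie above all 6 others for GADD45A (27.7 to 29.0 against 20.3 to 22.7 CPM), TP63 (1.71 to 3.46 against 0.74 to 1.36 CPM) and TP53INP1 (23.68 to 27.46 against 18.36 to 23.16 CPM).

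TP63 was the member with the largest difference. It lies on chromosome 3 (189631416 to 189897279, + strand, GRCh38, GENCODE 29), and its RNAs start either at an upstream promoter, giving forms with the transactivation domain, or inside the gene, giving the ΔN forms; the gene-level counts do not separate them. TP63 was at 1.13, 0.90 and 0.74 CPM in the Vector libraries. It was at 1.3, 1.36 and 1.23 CPM in the PLK2(D223N) libraries. In the PLK2 libraries it was at 1.71, 3.46 and 2.38 CPM. All 3 PLK2 libraries lay above the 6 others, with PLK2 replicate 2 well above its fellows, and the PLK2(D223N) libraries lay between the other groups. In bulk RNA, more cells with TP63 RNA and more of it per cell cannot be told apart. These levels rested on few reads: 19, 13 and 12 counts in Vector against 27, 54 and 38 in PLK2. TP63 rose in PLK2 against Vector, with a log2 fold change of 1.43 (SE 0.28, 95% interval 0.85 to 2.02, edgeR adjusted p = 0.0279). The call was lost without PLK2 replicate 2 (1.14, adjusted p = 0.210), PLK2 replicate 3 (0.0993) or Vector replicate 3 (0.118). It was also lost in a fit to the 6 libraries compared (0.102) and when PLK2(D223N) replicate 1 (0.0566), 2 (0.0548) or 3 (0.0552) was left out, so TP63 is a call close to the threshold.

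The RefSeq promoter table (GRCh38.p14, 250 bases before to 50 after a start) matched 7 of the 9 genes with 14 windows. TP63, the called gene among those matched, had 1 window, at chr3:189631139-189631438 on the + strand, printed 5′ to 3′ because it is the start of the forms with the transactivation domain. It is in lower case throughout because no match to the p53 motif was found in it.
TP63: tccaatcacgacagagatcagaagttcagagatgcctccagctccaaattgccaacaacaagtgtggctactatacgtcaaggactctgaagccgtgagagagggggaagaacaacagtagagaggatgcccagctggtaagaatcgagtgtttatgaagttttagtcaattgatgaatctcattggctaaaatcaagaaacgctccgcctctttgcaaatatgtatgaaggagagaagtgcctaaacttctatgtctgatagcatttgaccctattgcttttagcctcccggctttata

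TP73, which encodes p73, lies on chromosome 1 (3652520 to 3736201, + strand). It was at 12.01, 10.61 and 9.71 CPM in Vector libraries, at 11.18, 11.97 and 10.94 in PLK2(D223N) libraries and at 8.80, 9.87 and 10.85 in PLK2 libraries. The PLK2 and Vector libraries overlapped, whereas each PLK2 library lay below each PLK2(D223N) library. TP73 did not pass the test in any comparison. Its log2 fold change was -0.13 (SE 0.11, 95% interval -0.36 to 0.09, edgeR adjusted p = 0.520) in PLK2 against Vector, and -0.21 (SE 0.10, adjusted p = 0.860) against PLK2(D223N). The interval of TP73 against Vector lay wholly below that of TP63; the difference between the genes was not tested.

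The motif searched for was the p53 consensus half-site of 10 bases, by name, on both strands, and a full site made of a pair of half-sites at most 13 bases apart. No member window held an exact full site, against 0.0285% of all 35116 windows of this length, and 1 of the 14, in SESN1, held a half-site, against 6.63%. With up to 2 mismatches over the pair of half-sites, keeping the C and G of each, 3 of the 14 windows held a site, against 2.93% of all; this looser search was added after the data had been seen. These matches describe the letters only. Bases outside the windows were not searched, and GADD45A and TP53INP1 had no window. A pair of the windows belongs to MDM2 and overlaps, sharing a single site at chromosome 12, 68808923 to 68808942, inside MDM2 and in an intron of all 7 GENCODE transcripts that span it. The remaining one belongs to TP73, at chromosome 1, 3690596 to 3690615, inside TP73 and in an intron of all 7 transcripts that span it. The windows with these sites are shown because they mark internal starts of an inhibitor and of a family member, MDM2 at chr12:68808767-68809066 and TP73 at chr1:3690422-3690721, both on the + strand, with the loose match in capitals.
MDM2: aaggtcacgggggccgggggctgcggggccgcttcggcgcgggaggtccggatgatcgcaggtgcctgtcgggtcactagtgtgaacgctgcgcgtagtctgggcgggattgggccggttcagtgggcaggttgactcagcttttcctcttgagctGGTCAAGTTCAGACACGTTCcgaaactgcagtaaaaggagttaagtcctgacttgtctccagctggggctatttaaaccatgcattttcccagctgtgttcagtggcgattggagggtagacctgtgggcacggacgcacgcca
TP73: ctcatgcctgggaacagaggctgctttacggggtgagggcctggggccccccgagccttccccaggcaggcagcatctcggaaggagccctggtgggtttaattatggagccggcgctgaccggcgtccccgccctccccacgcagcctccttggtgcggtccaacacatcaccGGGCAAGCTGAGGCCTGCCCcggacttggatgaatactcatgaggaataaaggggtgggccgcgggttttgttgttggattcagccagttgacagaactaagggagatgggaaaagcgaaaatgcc

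MDM2, the ubiquitin ligase that limits p53, lies on chromosome 12 (68808176 to 68850686, + strand). It was at 161.5, 214.6 and 190.2 CPM in the Vector libraries. It was at 225.7, 214.5 and 209.0 CPM in the PLK2(D223N) libraries and at 222.4, 239.7 and 230.9 CPM in the PLK2 libraries. Each PLK2 library lay above each Vector library, while the PLK2(D223N) libraries overlapped both groups; the lowest value was that of Vector replicate 1, the library that stood apart. MDM2 did not pass the test in PLK2 against Vector, with a log2 fold change of 0.29 (SE 0.08, 95% interval 0.12 to 0.46, edgeR adjusted p = 0.117). Against PLK2(D223N) it was 0.09 (SE 0.08, adjusted p = 0.935). Without Vector replicate 1 the value against Vector fell to 0.19 and was called (adjusted p = 0.0114), and without Vector replicate 2 it was 0.39 and called (0.00102). It was also called by DESeq2 (0.0490) and with GC and length trends removed (0.00666), so MDM2 stood on either side of the threshold with the setting.

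MDM4, the MDM2 relative that masks p53, lies on chromosome 1 (204516379 to 204558120, + strand). It was at 69.2, 77.8 and 78.3 CPM in Vector libraries, at 76.9, 73.6 and 76.6 in PLK2(D223N) libraries and at 78.6, 75.8 and 74.5 in PLK2 libraries. The groups overlapped throughout. The log2 fold change in PLK2 against Vector was 0.02 (SE 0.06, 95% interval -0.10 to 0.15, edgeR adjusted p = 0.862), and its sign changed with the setting.

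GADD45A, a stress protein that takes part in the G2 checkpoint and in DNA repair, had the smallest p of the 9 genes in PLK2 against Vector. The gene lies on chromosome 1 (67685061 to 67688338, + strand). It was at 22.64, 20.32 and 21.64 CPM in Vector libraries and at 22.42, 21.97 and 22.74 in PLK2(D223N) libraries. It was at 29.00, 28.08 and 27.71 CPM in the PLK2 libraries. The 3 PLK2 libraries lay above the 6 others, and the Vector and PLK2(D223N) libraries overlapped. GADD45A rose in PLK2 against Vector with a log2 fold change of 0.39 (SE 0.07, 95% interval 0.25 to 0.53, edgeR adjusted p = 0.0117). Against PLK2(D223N) the log2 fold change was 0.34 (SE 0.07, 95% interval 0.20 to 0.48) and missed the threshold (adjusted p = 0.0631). In PLK2(D223N) against Vector it was 0.05 (SE 0.07, 95% interval -0.09 to 0.20, adjusted p = 0.783). The call against Vector was lost in a fit to the 6 libraries compared (0.0735) and without Vector replicate 3 (0.0536) or PLK2 replicate 1 (0.0895), 2 (0.101) or 3 (0.0641). The value against PLK2(D223N) was called in 5 of 18 other settings: a fit to the 6 libraries of that comparison (0.000173), no filter (0.0385), GC and length trends removed (0.00277), and without Vector replicate 1 (0.000551) or 2 (0.0197).

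TP53INP1, a stress-induced nuclear protein that promotes p53 phosphorylation and autophagy, was at 18.36, 19.98 and 20.96 CPM in Vector libraries. It was at 23.16, 18.95 and 22.37 CPM in PLK2(D223N) libraries and at 23.68, 27.24 and 27.46 CPM in PLK2 libraries. Each PLK2 library lay above each of the 6 others, and the Vector and PLK2(D223N) libraries overlapped. TP53INP1 narrowly missed the threshold in PLK2 against Vector, at a log2 fold change of 0.40 (SE 0.09, 95% interval 0.21 to 0.59, edgeR adjusted p = 0.0553), and it was 0.28 (SE 0.09, adjusted p = 0.536) against PLK2(D223N). It was called against Vector in 5 of 18 other settings, among them DESeq2 (0.0221) and without Vector replicate 1 (0.0105).

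CDKN1A, which lies on chromosome 6 (36676460 to 36687339, + strand), encodes p21, the inhibitor of cyclin-dependent kinases through which p53 halts the cell cycle. It was at 8.62, 7.08 and 7.19 CPM in Vector libraries, at 10.06, 8.52 and 8.85 in PLK2(D223N) libraries and at 8.42, 10.51 and 10.66 in PLK2 libraries. All 3 groups overlapped, since Vector replicate 1 was above PLK2 replicate 1 and PLK2(D223N) replicate 2. The log2 fold change in PLK2 against Vector was 0.37 (SE 0.12, 95% interval 0.11 to 0.62, edgeR adjusted p = 0.180). CDKN1A was called without Vector replicate 1 (0.0296) and with GC and length trends removed (0.0321). In PLK2(D223N) against Vector it was 0.26 (SE 0.12, adjusted p = 0.574).

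BTG2 and SESN1 showed the smallest differences in PLK2 against Vector. BTG2, an antiproliferative gene on chromosome 1 (203305491 to 203309602, + strand), was at 18.42, 18.66 and 18.07 CPM in Vector libraries, 19.93, 17.78 and 18.07 in PLK2(D223N) libraries and 16.97, 20.32 and 18.06 in PLK2 libraries. Its log2 fold change in PLK2 against Vector was 0.0050 (SE 0.08, 95% interval -0.17 to 0.18, edgeR adjusted p = 0.982). SESN1, which encodes sestrin 1, an inhibitor of mTORC1 signalling, lies on chromosome 6 (108986437 to 109094819, - strand). It was at 51.94, 54.18 and 52.49 CPM in Vector libraries, 51.11, 51.79 and 52.86 in PLK2(D223N) libraries and 51.73, 51.99 and 54.79 in PLK2 libraries. Its log2 fold change was -0.00034 (SE 0.05, 95% interval -0.12 to 0.11, adjusted p = 0.998). For both genes the libraries of the 3 groups overlapped.

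**Figure D2:**
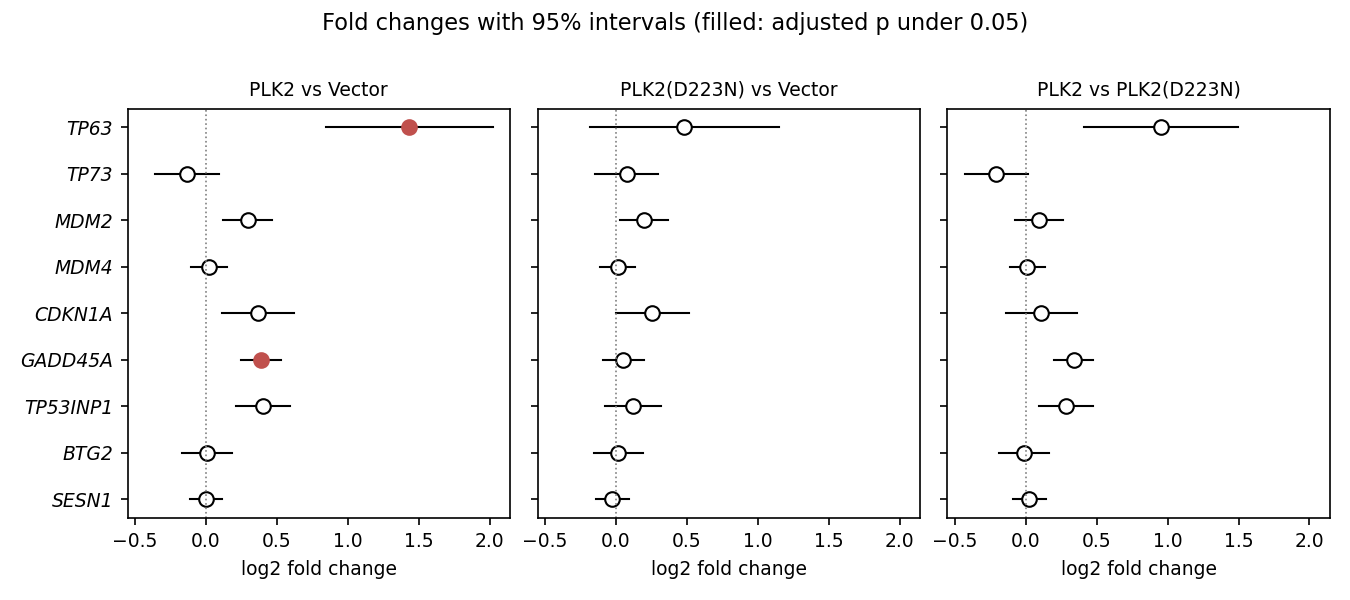
Log2 fold change of each of the 9 genes (x axis) with its 95% interval, in 3 panels for the 3 comparisons; filled points have an edgeR adjusted p under 0.05. Filled points are TP63 (1.43) and GADD45A (0.39) in PLK2 against Vector, and there are none in the other panels.

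In PLK2 against Vector 2 of the 9 genes, TP63 and GADD45A, were called higher and none lower, where 0.511% of the 12924 tested genes were called, 0.48% higher and 0.031% lower. At an unadjusted p under 0.05 there were 5, where 16.4% of tested genes fell under that limit. The median log2 fold change of the 9 genes was 0.29, against -0.0044 over all tested genes, and 7 of the 9 were above 0, where 48.9% of tested genes were. Groups did not overlap for 4 of the 9 (TP63, MDM2, GADD45A and TP53INP1), all higher in PLK2, where 20.1% of tested genes did not overlap, 10% higher and 10.1% lower. DESeq2 called 4 of the 9, where it called 1.11% of all genes, and limma on log2(TPM + 1) 1 of the 8 genes abundant enough for it, where it called 0.167%. Since the genes were chosen with earlier results known, these counts describe the set.

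In PLK2(D223N) against Vector none of the 9 genes was called by edgeR, DESeq2 or limma, where they called 0.0232%, 0.0696% and 0.025% of the genes each tested. At an unadjusted p under 0.05 there was 1, MDM2 (0.20, SE 0.08, edgeR adjusted p = 0.574), where 8.53% of tested genes fell under that limit. TP63 had the largest fold change, 0.48 (SE 0.31, 95% interval -0.18 to 1.15, adjusted p = 0.607), and alone of the 9 its PLK2(D223N) libraries were all higher than the Vector libraries, as for 6.66% of tested genes; none was lower throughout, as for 7.21%. The median of the 9 genes was 0.07, against 0.0078 over all tested genes, and 8 of the 9 were above 0, where 52.7% of tested genes were. MDM2 was called without Vector replicate 2 (0.30, adjusted p = 0.0230). This comparison shares its Vector libraries with that of PLK2 against Vector, so the values of the pair are not independent.

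The direct comparison of PLK2 with PLK2(D223N), which does not use the level of the Vector libraries, called none of the 9 genes, where 0.162% of tested genes were called, 0.155% higher and 0.00774% lower. DESeq2 and limma called none either, against 0.286% and 0.0917% of the genes they tested. At an unadjusted p under 0.05 there were 3, TP63 (log2 fold change 0.95, SE 0.25, edgeR adjusted p = 0.318), GADD45A and TP53INP1, where 6.04% of tested genes fell under that limit. The same 3 were higher in each PLK2 library than in each PLK2(D223N) library, as 11% of tested genes were, and TP73 was lower in each, as 9.49% were. Of the 9 genes 7 were above 0, where 47.9% of tested genes were. The spread shared by all 9 libraries entered this test, including that of the Vector libraries. In a fit to the 6 libraries compared, TP63 (0.0107), GADD45A (0.000173) and TP53INP1 (0.00973) were called, and the count over all genes went from 21 to 502.

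**Figure D3:**
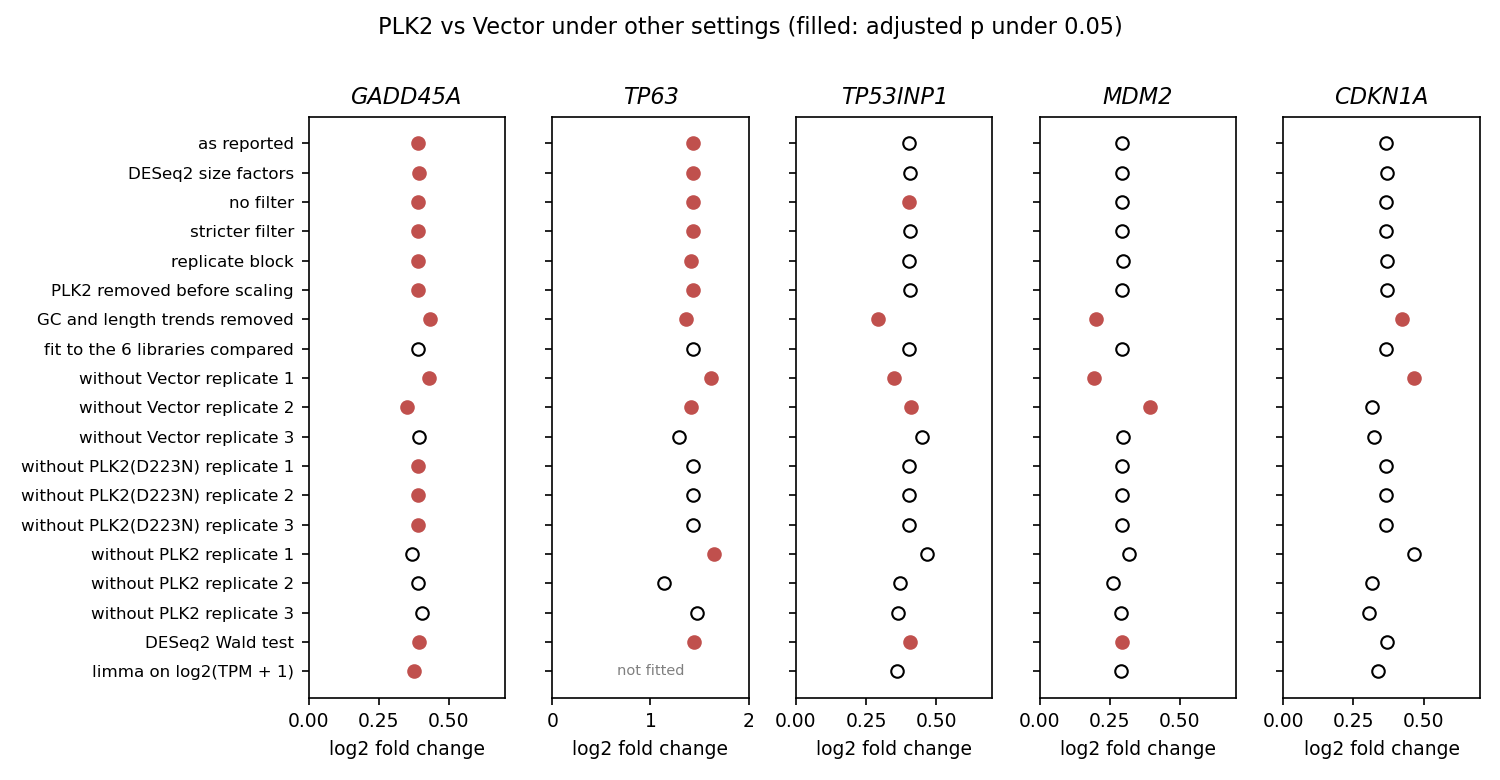
Log2 fold change in PLK2 against Vector (x axes, whose scales differ between genes) for 5 of the 9 genes under each setting, 1 setting a row; filled points have an adjusted p under 0.05. The 5 genes are those with the highest log2 fold changes in this comparison, and all their points are above 0. Of the genes not shown, TP73 was below 0 in every setting, and MDM4, BTG2 and SESN1 changed sign. GADD45A was called in 13 of 18 alternatives and TP63 in 10 of 17, the limma fit leaving TP63 out.

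Other genes linked to the pathway were counted by lists chosen with earlier results known. The list names are labels, and whether p53 raises each gene listed as a target was not tested. Where a list is said to have no called gene, DESeq2 and limma called none of its genes either. In PLK2 against Vector 16.4% of all tested genes had an unadjusted p under 0.05, and 48.9% were above 0. Of 25 tested regulators of p53, none was called in any comparison, and in PLK2 against Vector the median was 0.0029, with 3 at an unadjusted p under 0.05; those with the smallest p were PPM1D (0.19, SE 0.06), EP300 (0.14, SE 0.05) and SIRT1 (0.18, SE 0.08). Of 14 tested arrest and growth-control targets, none was called, with 2 at an unadjusted p under 0.05, 11 above 0 and a median of 0.07; CCNG2, a cyclin G gene, was at 0.22 (SE 0.07), PRKAB1 at -0.22 (SE 0.07) and GADD45B, the close relative of GADD45A, at 0.30 (SE 0.16, edgeR adjusted p = 0.337). Of 18 tested apoptosis targets, none was called, 4 had an unadjusted p under 0.05 and the median was 0.03; CASP8AP2 was at 0.34 (SE 0.09), PMAIP1, which encodes NOXA, at 0.18 (SE 0.06) and TNFRSF10D at 0.19 (SE 0.08). Of 22 tested repair and metabolic targets, none was called in PLK2 against Vector, with 5 at an unadjusted p under 0.05, 17 above 0 and a median of 0.10. In that list RRM2B was at 0.23 (SE 0.07), FBXO22 at 0.21 (SE 0.07) and GDF15, a secreted stress factor, at 1.32 (SE 0.43, adjusted p = 0.174) with only 0.696 ± 0.10 CPM in PLK2 libraries. ATF3, a stress-induced transcription factor of the same list, rose in PLK2(D223N) against Vector (0.48, SE 0.07, adjusted p = 0.0261), a call lost in 8 of 18 other settings, with adjusted p of up to 0.439. In PLK2 against Vector ATF3 was at 0.25 (SE 0.07, edgeR adjusted p = 0.135), with each PLK2 library above each Vector library. In PLK2 against PLK2(D223N) it was at -0.23 (SE 0.07, edgeR adjusted p = 0.446). The counts of 0 in PLK2 against Vector changed when Vector replicate 2 was left out, to 4 regulators, 2 arrest targets, 3 apoptosis targets and 3 repair and metabolic targets, while the count over all genes went from 66 to 1656. Without Vector replicate 1 they were 0, 0, 1 and 1, while the count over all genes was 363. With GC and length trends removed, EP300, CASP8AP2 and ATF3 were called in PLK2 against Vector, while the count over all genes was 379. In PLK2 against PLK2(D223N), the fit to the 6 libraries compared called 1 regulator and 3 arrest targets. Over all genes the count in that comparison went from 21 to 502.

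Genes linked to p63 and p73 in their own tissues gave no call in the 3 comparisons as tested on all 9 libraries. Of 24 p63-linked basal epithelial genes, 12 passed the filter, with a median of -0.03 and 2 at an unadjusted p under 0.05 in PLK2 against Vector. In that comparison 16.4% of all tested genes fell under that limit. JAG2, a Notch ligand, was at -0.33 (SE 0.09, edgeR adjusted p = 0.107), DST at 0.23 (SE 0.11) and FGFR2 at -0.13 (SE 0.07). In PLK2 against PLK2(D223N) the median of these 12 genes was 0.0020, with 7 above 0. There 3 had an unadjusted p under 0.05, against 6.04% of tested genes. In each PLK2 library 4 were lower, against 9.49%, and 0 were higher, against 11%. JAG2 was at -0.39 (SE 0.09, edgeR adjusted p = 0.131), and was called in the fit to the 6 libraries compared and without Vector replicate 1. Of 12 p73-linked multiciliation genes 7 passed the filter, with a median of 0.10 and 1 at an unadjusted p under 0.05 in PLK2 against Vector; RFX3 was at 0.31 (SE 0.10), RFX2 at -0.16 (SE 0.13) and MYB at 0.16 (SE 0.14). The median of these 7 genes was 0.22 in PLK2(D223N) against Vector, with 6 above 0 and none at an unadjusted p under 0.05, against 52.7% and 8.53% of tested genes. Their median was -0.09 in PLK2 against PLK2(D223N), with 1 above 0 and none at an unadjusted p under 0.05, against 47.9% and 6.04% of tested genes. Without Vector replicate 2, 2 of the p63-linked and 1 of the p73-linked genes were called in PLK2 against Vector, while the count over all genes went from 66 to 1656.

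Genes that p21 is known to repress through the DREAM complex, which turns off cell cycle genes, gave the largest count among the 7 lists. Whether p21 or DREAM had a part in their levels here was not tested. Of 30 tested, 3 were called higher in PLK2 against Vector and none lower, where 0.48% and 0.031% of all tested genes were. AURKA, the mitotic kinase, rose by a log2 fold change of 0.34 (SE 0.05, edgeR adjusted p = 0.00927), TOP2A, which encodes DNA topoisomerase II alpha, by 0.45 (SE 0.09, adjusted p = 0.0408) and HMMR, a spindle protein gene, by 0.50 (SE 0.08, adjusted p = 0.0105). The call of TOP2A was lost in 9 of 18 other settings, and those of AURKA and HMMR in 4 each. Leaving out any single PLK2 or PLK2(D223N) library lost the call of TOP2A. In Vector replicate 1, which stood apart, TOP2A was at 507 CPM, against 729 and 652 in the other Vector libraries. HMMR was at 135 CPM there, against 178 and 162. CENPF (0.42, SE 0.09), CDC25C (0.32, SE 0.08) and TTK (0.28, SE 0.07) did not pass. The median of the list was 0.11 with 23 of 30 above 0 and 14 at an unadjusted p under 0.05, against 48.9% and 16.4% of all tested genes. In PLK2(D223N) against Vector none was called, by edgeR, and 2 had an unadjusted p under 0.05, against 8.53% of tested genes; the median was 0.0029. In PLK2 against PLK2(D223N) AURKA was called (0.33, SE 0.05, adjusted p = 0.0158), the median was 0.11, 13 had an unadjusted p under 0.05, against 6.04% of tested genes, and 23 of 30 genes were higher in each PLK2 library, where 11% of tested genes were. The count of 3 went to 0 in the fit to the 6 libraries compared and without PLK2 replicate 1 or 2, to 1 without Vector replicate 3, and to 12 and 11 without Vector replicate 1 or 2. DESeq2 called 6 and limma 1. Over all genes the count of 66 went to 23 in that fit, 22 and 13 without PLK2 replicate 1 or 2, and 44 without Vector replicate 3. It went to 363 and 1656 without Vector replicate 1 or 2, 143 by DESeq2 and 20 by limma. The call of AURKA against PLK2(D223N) was lost when any single PLK2(D223N) library, or PLK2 replicate 1 or 2, was left out, with adjusted p of up to 0.201. In the fit to the 6 libraries of PLK2 and PLK2(D223N), 14 genes of the list were called, while the count over all genes went from 21 to 502.

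**Figure D4:**
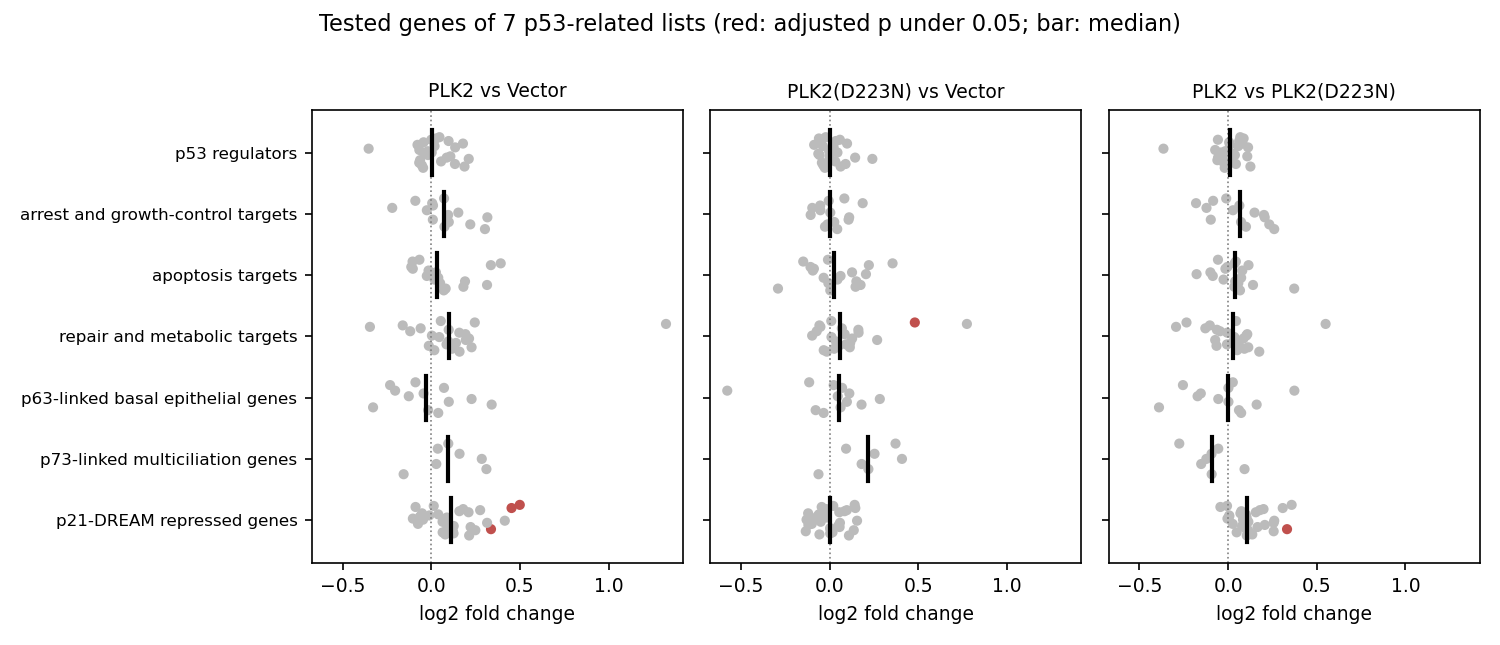
Log2 fold change (x axis) of the tested genes of 7 p53-related lists (rows) in the 3 comparisons (panels); each point is a gene, red where the edgeR adjusted p is under 0.05, and the bar is the list's median. The p21-DREAM list has 3 red points in PLK2 against Vector (0.34 to 0.50) and a median of 0.11.

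The genes whose pattern over the 9 libraries was most like a member's were found among 12295 genes of at least 1 CPM, by the root mean square difference of their log2 CPM deviations. For TP63 these were ANKRD1 (0.202), DHRS2 (0.231) and H2BC5 (0.232), with a median over all genes of 0.502. ANKRD1, a cardiac ankyrin repeat gene, was at 19.4, 19.6 and 19.9 CPM in Vector, 25.3, 22.4 and 24.6 in PLK2(D223N) and 39.4, 44.0 and 39.4 in PLK2 libraries. Like TP63 it was highest in PLK2 replicate 2. For GADD45A they were HJURP (0.047), AURKA (0.056) and CDC25C (0.063), with a median of 0.202. HJURP, the chaperone that loads the centromeric histone CENP-A, was at 64.5, 60.6 and 65.3 CPM in Vector, 60.2, 61.8 and 64.4 in PLK2(D223N) and 81.2, 81.3 and 80.2 in PLK2 libraries. Both HJURP and GADD45A had overlapping Vector and PLK2(D223N) libraries with the PLK2 libraries above them. For CDKN1A they were DNAH1 (0.087), AP5Z1 (0.092) and PEX16 (0.104), with a median of 0.216. Closeness here is a description of these libraries and was not tested.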

How the data were processed

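PolyA-selected RNA of HEK293T cells was sequenced in 9 libraries, 3 a group. The deposited table gives estimated counts and TPM per gene, besides FPKM and a normalised count signal, which make up 18 deposited per-library columns that no test used. Per the file headers, FPKM and TPM were scaled by the authors to length and library size, and the signal is a count divided by a factor per library. Per the submitters' processing notes, Bowtie2, RSEM 1.3.1 and DESeq2 1.4.5 were used, with GRCh38.p13; the labels give neither their order nor their settings. The p53 gene itself is not reported here, and the planned protein comparison was not run.

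The deposited estimated counts (87.1% to 88.5% within 0.005 of a whole number) were rounded and tested with edgeR 4.0.16 in R 4.3.3: filterByExpr, TMM scaling, a robust quasi-likelihood fit to all 9 libraries by group, Benjamini-Hochberg adjustment over 12924 genes, calls at an adjusted p under 0.05. Estimated counts can split reads between related genes. Alternatives used DESeq2 1.42.0, limma 3.58.1 on log2(deposited TPM + 1) with a mean TPM of at least 1, and GC and length trends from GENCODE 29 for 12841 genes (loess span 0.3). The rows named were the 9 genes, list genes called in any comparison, up to 3 others a list with the smallest p in PLK2 against Vector, PLK2, and the 3 genes most like TP63, GADD45A and CDKN1A. The members and lists were chosen with earlier results of these data known. Deviations from the group mean correlated at -0.107 to 0.126 between same-numbered libraries of different groups. Between differently numbered libraries of different groups the correlations were -0.206 to 0.114. These ranges overlapped, and the numbers were not used to pair libraries in the reported fit.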

Additional observations from a re-analysis of the deposited data

How the results depend on the processing

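Of the fold changes of the 9 genes under the alternatives, 426 kept their direction and side of the threshold, 21 passed it newly, 12 lost it and 24 changed sign; the latter belong to MDM4, BTG2 and SESN1, whose values lie near 0. In PLK2 against Vector the count of called genes went from 66 to 136 with no filter, 379 with GC and length trends removed (252 higher and 127 lower, against 62 and 4), 23 in the fit to 6 libraries, 143 by DESeq2, 20 by limma, and 13 to 1656 leaving out 1 library. In PLK2(D223N) against Vector it went from 3 to 5 with no filter, 8 with GC and length trends removed, 9 by DESeq2 and 2 to 347 leaving out 1 library. In PLK2 against PLK2(D223N) it went from 21 to 35 with no filter, 92 with GC and length trends removed, 502 in the fit to 6 libraries, 37 by DESeq2, 11 by limma and 9 to 317 leaving out 1 library.

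The count of the 9 genes called in PLK2 against Vector went from 2 to 5 with GC and length trends removed, 0 in the fit to 6 libraries, 4 by DESeq2, 1 by limma and 0 to 5 leaving out 1 library. In PLK2(D223N) against Vector it was 0 to 1 leaving out 1 library. In PLK2 against PLK2(D223N) it went from 0 to 1 with no filter, 1 with GC and length trends removed, 3 in the fit to 6 libraries and 0 to 3 leaving out 1 library. The counts of called genes in the 7 lists moved in 56 cases under the alternatives and did not in 322. Adding the replicate block gave 76, 4 and 20 called genes in the 3 comparisons and 2, 0 and 0 of the 9 genes (TP63 adjusted p 0.0235, GADD45A 0.0200, by edgeR); the labels do not say that the numbers pair the libraries.

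Reversed log2 fold changes were, with GC and length trends removed, MDM4 at -0.059 in PLK2 and -0.067 in PLK2(D223N) against Vector. SESN1 in PLK2 against Vector was 0.0023 with DESeq2 size factors, 0.0012 with the stricter filter, 0.0011 with PLK2 removed before scaling, 0.0024 by DESeq2 and 0.011 by limma. By limma SESN1 was 0.039 in PLK2(D223N) against Vector and -0.027 in PLK2 against PLK2(D223N), where MDM4 was -0.035. Leaving out 1 library, PLK2 against Vector ranged from -0.034 to 0.054 for MDM4, -0.073 to 0.060 for BTG2 and -0.029 to 0.017 for SESN1. PLK2(D223N) against Vector ranged from -0.045 to 0.043 for MDM4 and -0.037 to 0.047 for BTG2. PLK2 against PLK2(D223N) ranged from -0.0087 to 0.030 for MDM4 and -0.085 to 0.047 for BTG2. The cause of these changes was not tested. Depth limits TP63 most, at 12 to 54 counts a library in Vector and PLK2. The edgeR p-values set a difference between groups against a spread estimated from all 9 libraries, with 3 libraries a group.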
